A study of Mus musculus with 6 samples.

Results

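The genes of the epithelial sodium channel (ENaC) and of the aldosterone response, 10 in number, were followed in whole kidney RNA of mice at postnatal day 13. They were taken by symbol from 24422 genes in the count tables, and all 10 were found and passed the filter on low counts. They were the 3 ENaC subunit genes Scnn1a, Scnn1b and Scnn1g, the mineralocorticoid receptor gene Nr3c2, the enzyme gene Hsd11b2, the kinase gene Sgk1, the ubiquitin ligase gene Nedd4l, and Fxyd4, Tsc22d3 and Gata3. RNA-seq libraries came from 3 Control and 3 TfR1 knockout kidneys of C57BL/6 mice, all on an iron sufficient diet of 220 ppm iron. Control kidneys were labelled wild type. The TfR1 knockout kidneys were labelled Tfr1f/f;SixCre: the transferrin receptor gene Tfrc (TfR1) was floxed and deleted by Six2CreEGFP, a transgene that is active in nephron progenitors and not in the ureteric bud. The transgene was in the knockout kidneys only, and its own effect and that of the deletion cannot be told apart. The study's supplement describes the RNA-seq controls as wild-type littermates, but the labels do not say which libraries share a litter, and the p-values measure the spread between these 6 libraries.

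ENaC takes up sodium across the apical membrane of the last part of the distal convoluted tubule, the connecting tubule and the principal cells of the collecting duct. Aldosterone binds the mineralocorticoid receptor, which raises transcription of Sgk1, of Scnn1a in the kidney and of Tsc22d3, and the kinase SGK1 then keeps the ubiquitin ligase NEDD4-2, the product of Nedd4l, from removing channels from the membrane. Glucocorticoids bind the same receptor unless the enzyme encoded by Hsd11b2 inactivates them, and they act on many of the same target genes through their own receptor. The collecting duct grows from the ureteric bud, outside the lineage of Six2, whereas the connecting tubule and distal convoluted tubule come from nephron progenitors.

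The total count per library was 16591156 to 22898008. Tfrc itself had 3667 to 6485 normalized counts in Control and 4046 to 6976 in knockout libraries. The loxP sites flank exons 3 and 4 only, so a count over the whole gene does not check the deletion. Transcripts of 5 adrenal cortex genes summed to 1133 CPM (counts scaled to the total of the library) in Control 1 and 142 CPM in knockout 3, and to 7.90 to 16.2 CPM in the other 4 libraries. Control 3 was the lowest Control library for all 10 genes, and its markers of mesangial cells and pericytes summed to 1172 CPM, against 600 and 631 CPM in the other 2 Control libraries. The part of either in the results below was not tested, and the counts for the gene lists are given with and without these libraries. In whole kidney RNA, a change in the number of cells of a type and a change in RNA per cell cannot be told apart.

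The receptors for mineralocorticoids and glucocorticoids bind the same inverted repeats in DNA. A search for GNACANNNTGTNC, a palindrome that reads the same on both strands, covered the 5000 bases before each annotated start of a protein-coding transcript in mm9 (NCBIM37). A match stood in 8.21% of 45942 windows. Of the 28 windows of the 10 genes, 4 held a match, all from 1 site in Scnn1a and 1 site in Sgk1. Both sites are shown because they were the only matches among the 10 genes. The 2 Per1 sites are shown as an example from the other steroid receptor targets described below. Of those targets, Dusp1 and Fkbp5 also had a match, while Edn1, Errfi1, Klf9, Ndrg2, Sult1d1 and Zbtb16 had none. In the sites printed here, the matched bases are in capitals with 7 bases on either side. Each site is given on the strand of its gene, which is the plus strand in each case.
Scnn1a, chr6:125270554-125270580: tcaaaaaGAACAGAATGTCCtaggacc
Sgk1, chr10:21713501-21713527: gcggaaaGAACAGAATGTTCtcggaga
Per1, chr11:68910572-68910598: gccaagaGAACACGATGTTCcctagtg
Per1, chr11:68912912-68912938: caggctgGAACATCCTGTTCtcagcgc
The centre of the Scnn1a match lay 791 bases before the start of the transcript. The Sgk1 match lay 182, 958 and 1202 bases before 3 of that gene's annotated starts. The other 8 genes, Tsc22d3 among them, had no match in these windows, which says only that these letters were not there. A match is a run of letters and is not evidence of binding.

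Of the 10 genes, 5 rose in the knockout and 0 fell. The 10 were chosen with earlier results of these data known, so the shares set beside them describe and do not test. At a DESeq2 adjusted p under 0.05 over all 16509 genes tested, those higher were 5 of 10 (Scnn1b, Sgk1, Fxyd4, Tsc22d3 and Gata3), where 7.74% of all genes tested were higher and 7.18% lower. At an unadjusted p under 0.05, DESeq2 had 6 higher and 0 lower. With edgeR's quasi-likelihood test, 1 of 10 was higher (Fxyd4) and 0 were lower, against 3.22% and 2.80% of 15308 genes. All 3 knockout libraries lay above all 3 Control libraries for 7 of the 10 genes and below them for 0, against 16.9% of all genes tested above and 16.9% below. The median log2 fold change of the 10 was 0.65, beside 0.0071 over all genes tested. Scaling by total counts in place of median ratios left 4 of the 10 genes higher, and it moved the calls over all genes from 1277 higher and 1186 lower to 996 higher and 1407 lower. The 5 calls fell to 3 without Control 1, to 3 without Control 3, to 2 without knockout 2 and to 2 (Fxyd4 and Tsc22d3) without both libraries that carried adrenal transcripts, Control 1 and knockout 3.

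**Figure D1:**
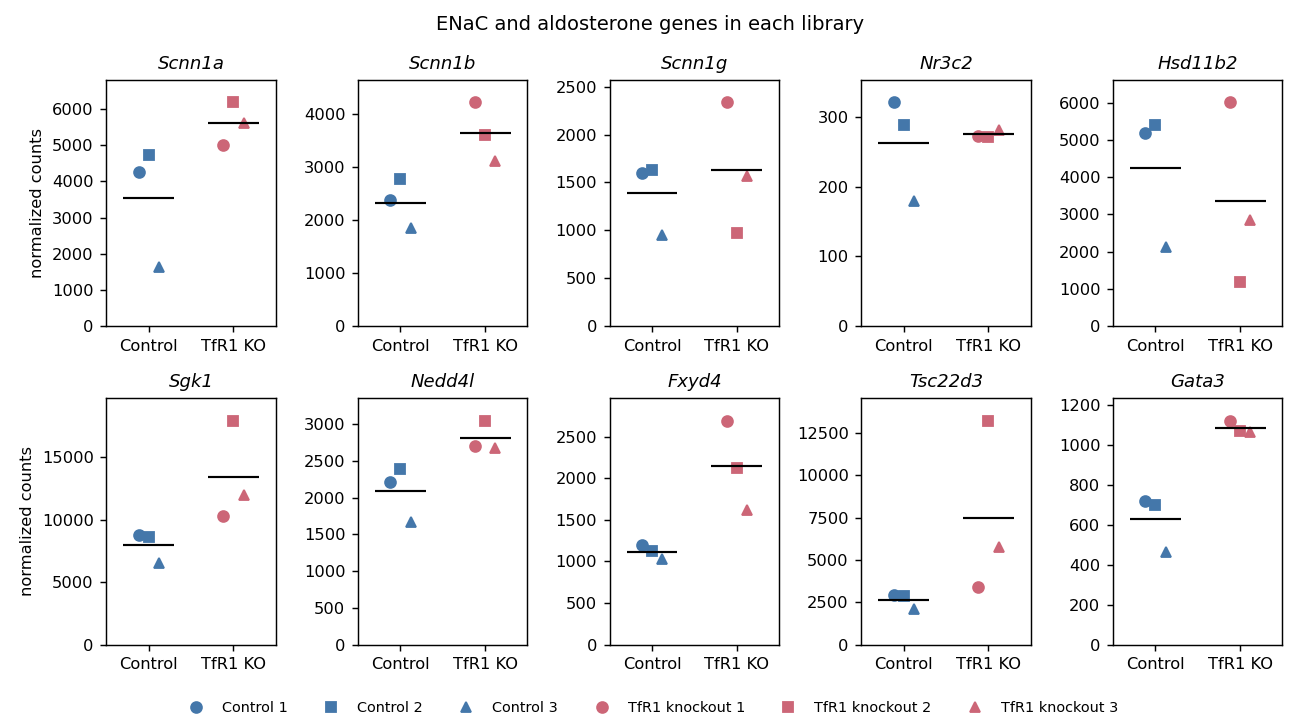
Normalized counts (vertical axis, linear from 0) of the 10 genes in each of the 3 Control and 3 TfR1 knockout (KO) libraries, with marker shape giving the replicate number and bars the group means. Knockout libraries lie above every Control library for 7 genes, while Scnn1g, Nr3c2 and Hsd11b2 overlap.

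**Figure D2:**
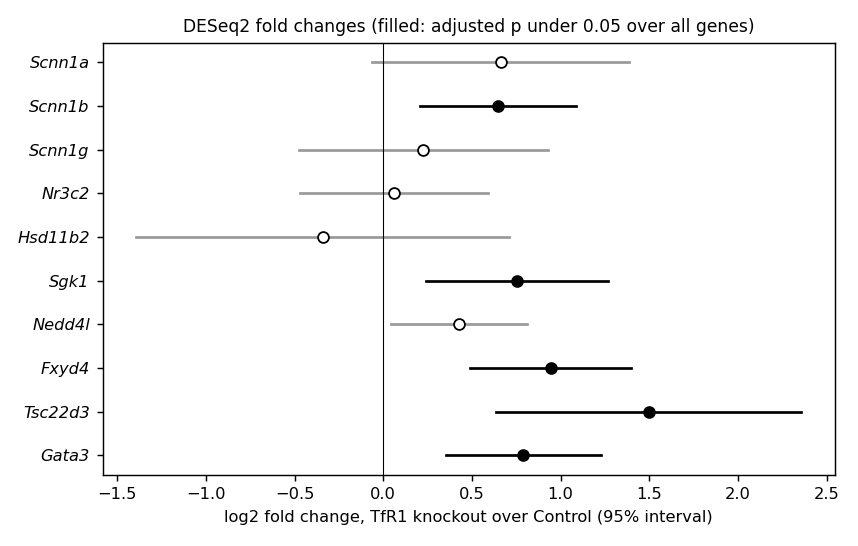
DESeq2 log2 fold change of TfR1 knockout over Control (horizontal axis) for each of the 10 genes, with lines for the 95% interval and filled points for an adjusted p under 0.05 over all genes. The 5 filled points run from 0.65 for Scnn1b to 1.496 for Tsc22d3, and Hsd11b2 has the widest interval, from -1.40 to 0.71.

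Of the 3 ENaC subunit genes, Scnn1b rose and the other 2 did not pass the test. Scnn1b (chr7:129008591-129062029, plus strand), which encodes the beta subunit, had 2365, 2769.5 and 1841 normalized counts in Control 1, 2 and 3 and 4216, 3596 and 3114 in knockout 1, 2 and 3. The groups did not overlap. Its means were 2325 ± 466 and 3642 ± 553 (SD, n = 3 each), a 1.57-fold rise (log2 fold change 0.65, SE 0.22, DESeq2 adjusted p 0.0301). edgeR gave an adjusted p of 0.0945 for Scnn1b, and the DESeq2 call was lost without Control 1, Control 3, knockout 1 or knockout 2.

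Scnn1a (chr6:125271358-125294958, plus strand) encodes the alpha subunit, the one whose transcription in kidney is under aldosterone. Its normalized counts were 4265, 4727 and 1634 in the Control libraries and 5007, 6192 and 5615 in the knockout libraries. No Control library reached the lowest knockout library, but Control 3 was far below the other Control libraries. The difference did not pass the test (log2 fold change 0.66, SE 0.37, 95% interval -0.06 to 1.39, DESeq2 adjusted p 0.232, edgeR 0.292). Without Control 3 the log2 fold change of Scnn1a was 0.32.

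Scnn1g (chr7:128877993-128911989, plus strand), the neighbour of Scnn1b on chromosome 7, encodes the gamma subunit. It had 1599.6, 1629 and 948 normalized counts in Control and 2339.9, 971 and 1572 in the knockout. The groups overlapped, with knockout 1 the highest of all libraries and knockout 2 close to the low Control 3. Its log2 fold change was 0.23 (SE 0.36, 95% interval -0.48 to 0.93, DESeq2 adjusted p 0.735), and it was -0.13 without knockout 1.

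Per kilobase of the longest transcript, the mean levels of the subunits in Control kidneys were 1013 ± 477 normalized counts for Scnn1a, 897 ± 179.7 for Scnn1b and 466 ± 129 for Scnn1g (SD, n = 3). In the knockout they were 1603 ± 169.5 for Scnn1a, 1406 ± 213 for Scnn1b and 544 ± 229 for Scnn1g. Scnn1g was the lowest of the 3 in every library, whereas Scnn1a and Scnn1b changed places: Scnn1b was higher per length in Control 3 and knockout 1, and Scnn1a in the other 4 libraries. The share of Scnn1g in the sum of the 3 subunits was 20.1%, 18.4% and 21.2% in Control 1, 2 and 3 and 20.4%, 9.32% and 15.8% in knockout 1, 2 and 3. Knockout 2 thus had the smallest gamma share of all libraries and, at 50.8%, the largest alpha share. The ratios between subunits within a library were compared by the exact two-sided permutation test over libraries, which with 3 against 3 cannot give a p below 0.1 and so cannot show whether they differed. The log2 ratio of Scnn1b to Scnn1a differed by -0.14 between knockout and Control (exact permutation p 0.7), that of Scnn1g to Scnn1a by -0.62 (exact permutation p 0.4) and that of Scnn1g to Scnn1b by -0.48 (exact permutation p 0.2). Single libraries moved these values: the first was 0.18 without Control 3, the second -1.01 without knockout 1 and -0.22 without knockout 2, and the last -0.16 without knockout 2.

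**Figure D3:**
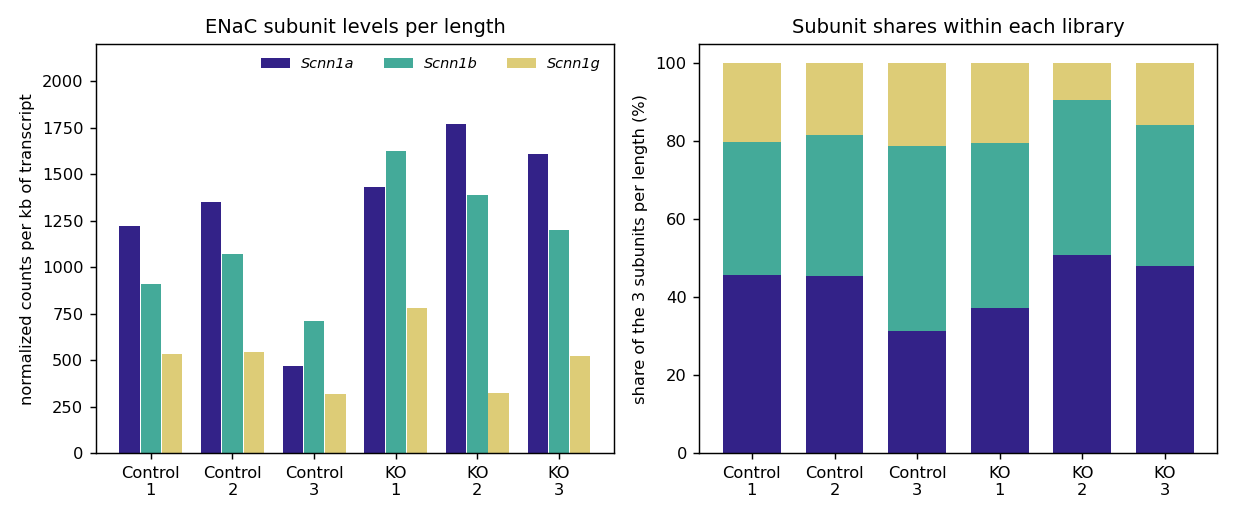
Left, normalized counts per kilobase of transcript (bars from 0) of Scnn1a, Scnn1b and Scnn1g in each Control and TfR1 knockout (KO) library. Right, the share of each subunit in the sum of the 3, in percent, where Scnn1g is at 9.32% in knockout 2 against 18.4% to 21.2% in the Control libraries.

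The receptor that reads aldosterone and the enzyme that guards it did not pass the test. Nr3c2 (chr8:79423341-79768911, plus strand), the mineralocorticoid receptor gene, had 322, 289 and 179.8 normalized counts in Control and 273.5, 271 and 281 in the knockout. The knockout libraries all fell within the range of the Control libraries and lay close to each other (275 ± 5.09 against 263.5 ± 74.3, SD, n = 3 each). Its log2 fold change was 0.06 (SE 0.27, 95% interval -0.47 to 0.59, DESeq2 adjusted p 0.916), and it was -0.15 without Control 3. Per kilobase Nr3c2 was the lowest of the 10 genes in both groups, at 44.5 ± 12.6 normalized counts in Control and 46.5 ± 0.86 in the knockout (SD, n = 3 each).

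Hsd11b2 (chr8:108042646-108047884, plus strand) encodes the enzyme that inactivates glucocorticoids in aldosterone target cells. Its normalized counts were 5198, 5404.5 and 2129 in Control 1, 2 and 3 and 6016, 1176 and 2849 in knockout 1, 2 and 3. The groups overlapped fully: knockout 1 was the highest of all libraries and knockout 2 the lowest. Hsd11b2 was the one gene of the 10 with a negative log2 fold change, -0.34 (SE 0.54, 95% interval -1.40 to 0.71, DESeq2 adjusted p 0.732). That value was 0.065 without knockout 2 and -1.08 without knockout 1, so the direction rested on single libraries.

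Sgk1, the kinase gene, rose, and Nedd4l, whose product it inhibits, did not pass the test. Sgk1 (chr10:21601990-21719709, plus strand) had 8749.8, 8585 and 6491 normalized counts in Control and 10317, 17922 and 11949 in the knockout. Every knockout library lay above every Control library, with knockout 2 far above the other two. The rise was 1.69-fold (log2 fold change 0.75, SE 0.26, DESeq2 adjusted p 0.0312, edgeR 0.117). The call for Sgk1 held in 1 of the 6 fits that left out 1 library, the one without knockout 1, and its log2 fold change fell to 0.49 without knockout 2. Per kilobase Sgk1 had the highest level of the 10 genes in both groups, 2565 ± 407 normalized counts in Control and 4327 ± 1293 in the knockout (SD, n = 3 each). In Control it lay next to Hsd11b2, at 2300.2 ± 994 per kilobase, and the SDs of the pair overlapped. Scnn1a, Fxyd4 (931 ± 70.4), Tsc22d3 (922 ± 161) and Scnn1b followed in Control, with overlapping SDs, and then Scnn1g, Nedd4l (255 ± 45.1) and Gata3 (195 ± 44.2). In the knockout the order after Sgk1 was Tsc22d3 (2601 ± 1783), Hsd11b2 (1814 ± 1333) and Fxyd4 (1792 ± 451), whose SDs overlapped, then Scnn1a and Scnn1b, Scnn1g, Nedd4l (342 ± 25.6) and Gata3 (338 ± 9.69).

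Nedd4l (chr18:65047410-65377480, plus strand), the ubiquitin ligase gene, had 2209.7, 2387 and 1676 normalized counts in Control and 2699.9, 3053 and 2678 in the knockout. The groups did not overlap, but Control 2 came near to knockout 3. Its log2 fold change of 0.43 (SE 0.19, 95% interval 0.04 to 0.81) had a DESeq2 adjusted p of 0.128 and an edgeR adjusted p of 0.16.

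Fxyd4 was the one gene of the 10 that passed with both DESeq2 and edgeR. This gene (chr6:117883747-117887353, minus strand) encodes a small membrane protein of the collecting duct that regulates ion transport. It had 1199, 1121 and 1030.1 normalized counts in Control and 2697, 2131.5 and 1617 in the knockout. The lowest knockout library lay well above the highest Control library. The mean rose from 1117 ± 84.4 to 2148 ± 540.3 (SD, n = 3 each), or 1.92-fold (log2 fold change 0.94, SE 0.23, DESeq2 adjusted p 9.44e-04, edgeR 0.0387). Fxyd4 passed the test in all 6 fits that left out 1 library, with a log2 fold change of 0.75 to 1.116.

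Tsc22d3 had the largest fold change of the 10. It encodes GILZ, a leucine zipper protein induced by both glucocorticoids and aldosterone, and lies on the X chromosome (chrX:137074067-137135198, minus strand). Its normalized counts were 2955, 2882 and 2118 in Control and 3419, 13243 and 5782 in the knockout. Knockout 2 stood at 499% of the Control mean, knockout 3 at 218% and knockout 1 at 129%, so the groups did not overlap but knockout 1 was close to Control. The rise was 2.82-fold (log2 fold change 1.496, SE 0.44, DESeq2 adjusted p 0.00795, edgeR 0.0983). Without knockout 2 the log2 fold change of Tsc22d3 was 0.80 (DESeq2 adjusted p 0.0554), and the gene passed in the other 5 fits that left out 1 library.

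Gata3, a transcription factor gene needed for the growth of the ureteric bud and expressed in the collecting duct, had 719.8, 699 and 464 normalized counts in Control and 1122, 1069.6 and 1066 in the knockout. It lies at chr2:9778705-9811661 on the minus strand. The knockout libraries were nearly equal and all above Control (1086 ± 31.2 against 628 ± 142, SD, n = 3 each). The 1.73-fold rise (log2 fold change 0.79, SE 0.22) had a DESeq2 adjusted p of 0.00517 and an edgeR adjusted p of 0.0537, and it passed in all 6 fits that left out 1 library. Exons of Gata3 share 77 bases with 9230102O04Rik on the same strand and 155 with Gm13256 on the other, out of 3978. Those of Nr3c2 share 247 of 6474 bases with Gm10649 on the other strand, which had at most 4 counts in any library. Reads in these stretches could be split or dropped by the counting.

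Other genes that glucocorticoid and mineralocorticoid receptors are known to induce moved with Sgk1 and Tsc22d3. Of 9 such genes outside the 10, 8 rose and 0 fell by DESeq2 (5 by edgeR), and for all 9 every knockout library lay above every Control library. Over all genes tested, 7.74% were higher by DESeq2 and 3.22% by edgeR, and 16.9% had every knockout library above every Control library. The list was chosen with earlier results of these data known. The median log2 fold change of the 9 was 1.65. Fkbp5, which encodes a chaperone of steroid receptors, had 1007, 1055 and 862 normalized counts in Control and 3267, 13321 and 6489 in the knockout (log2 fold change 2.98, SE 0.44, DESeq2 adjusted p 8.00e-10). Zbtb16, a transcription factor gene, had 202, 206 and 326 in Control and 832, 5617 and 1811 in the knockout (log2 fold change 3.49, SE 0.57, DESeq2 adjusted p 5.94e-08). Both genes were several times higher in knockout 2 than in knockout 1. Per1, a circadian clock gene induced by aldosterone, whose sites are printed above, had 2161, 2069.6 and 1919 normalized counts in Control and 3809.7, 7359 and 3944 in the knockout (log2 fold change 1.30, DESeq2 adjusted p 1.91e-04).

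The other members of that list that rose were Edn1, the gene of endothelin 1, which inhibits ENaC (log2 fold change 2.22, DESeq2 adjusted p 1.43e-11), Dusp1 (1.91, 3.62e-05), Errfi1 (1.65, 0.00804), Sult1d1 (1.64, 0.0018) and Klf9 (1.16, 0.014). The paper counts Edn1 among the targets of hypoxia inducible factor 1 alpha, and reports it as raised in kidneys of this knockout. Which receptor or factor raised Edn1 here was not tested. Ndrg2 had a log2 fold change of 0.39 (DESeq2 adjusted p 0.187). Without knockout 2 the log2 fold change was 0.86 for Errfi1, which then did not pass, 0.99 for Sult1d1 and 0.63 for Klf9, and the call for Klf9 was lost without Control 2 or Control 3. The count of 8 held without the libraries that carried adrenal transcripts.

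Within the knockout group, knockout 2 was the highest and knockout 1 the lowest library for most of these targets. As a percentage of the Control mean, knockout 1, 2 and 3 stood at 129.9%, 226% and 150.5% for Sgk1, at 335%, 1367% and 666% for Fkbp5 and at 340%, 2294% and 740% for Zbtb16. Scnn1a had the same order, at 141%, 175% and 158.5%. For Hsd11b2 they stood at 142%, 27.7% and 67.1%, and for Scnn1g at 168%, 69.8% and 113%. Knockout 2 was therefore the highest library for Sgk1, Fkbp5, Zbtb16 and Scnn1a, and the lowest knockout library for Hsd11b2 and Scnn1g. Other targets departed from this order. Dusp1 stood at 505%, 454% and 172% in knockout 1, 2 and 3, and Errfi1 was lowest in knockout 3, at 158%. This is a description of 3 libraries with no test. The gene list of the adrenal cortex summed to 16.2 CPM in knockout 2 and 7.90 CPM in knockout 1.

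**Figure D4:**
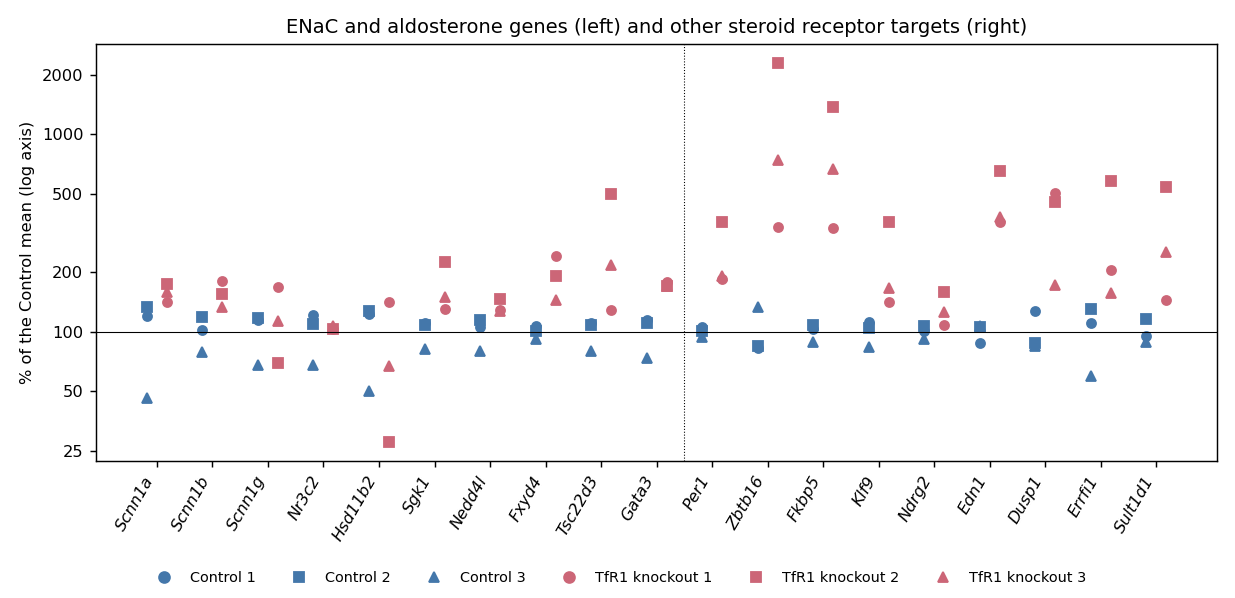
Each library's normalized count as a percentage of the Control mean (log axis) for the 10 ENaC and aldosterone genes, left of the dotted line, and 9 other steroid receptor targets, right of it. Knockout 2 (red squares) is the highest library for Tsc22d3, Fkbp5 and Zbtb16, at 499%, 1367% and 2294%, and the lowest for Hsd11b2, at 27.7%.

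The rest of the pathway was covered by 3 further lists. For these and the marker lists below, the share over all genes tested was 7.74% higher and 7.18% lower by DESeq2. With edgeR it was 3.22% and 2.80%. Of 11 genes that surround the receptor and the ubiquitin control of ENaC, 1 rose and 1 fell, near the DESeq2 share. Their median log2 fold change was 0.061. By edgeR 0 rose and 0 fell. Without Control 3, 0 rose and 1 fell, and without both libraries that carried adrenal transcripts 1 rose and 0 fell. Usp2, a deubiquitinase gene whose product acts on ENaC and which is itself under clock and steroid control, had 2295.5, 2380.5 and 876 normalized counts in Control and 3155, 6085 and 3320.3 in the knockout (log2 fold change 1.18, SE 0.41, DESeq2 adjusted p 0.0335, edgeR 0.132). Its call was lost without Control 3, knockout 2 or knockout 3. Sgk3, a relative of Sgk1, had 812, 807 and 876 normalized counts in Control and 579, 549 and 606 in the knockout (log2 fold change -0.52, SE 0.15, DESeq2 adjusted p 0.0056, edgeR 0.0534). The groups of Sgk3 did not overlap, and its call was lost without Control 1, Control 2 or knockout 3. Nr3c1, the glucocorticoid receptor gene, had 2489 to 2918 normalized counts in Control and 2031 to 2286 in the knockout (log2 fold change -0.33, SE 0.15, DESeq2 adjusted p 0.132).

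ENaC is activated by cleavage of its alpha and gamma subunits, and 3 of 8 genes of membrane proteases and their inhibitors rose, 0 fell and the median log2 fold change was 0.53 (2 rose by edgeR). Without Control 3, 3 rose and 1 fell, and without both libraries that carried adrenal transcripts 1 rose (Tmprss2). Tmprss2 had 4823, 6074 and 4239 normalized counts in Control and 9361, 14601 and 9438 in the knockout (log2 fold change 1.14, SE 0.25, DESeq2 adjusted p 1.87e-04, edgeR 0.0369), and it passed in all 6 fits that left out 1 library. Tmprss4 was at 8.18 to 12.4 normalized counts in Control and 30.3 to 48.7 in the knockout (log2 fold change 1.92, SE 0.51, DESeq2 adjusted p 0.00289), so its rise was between low levels, and it was lost without Control 2. St14, the gene of matriptase, had 2489, 2741 and 1263 normalized counts in Control and 4363, 4077.5 and 3736 in the knockout (log2 fold change 0.91, SE 0.30, DESeq2 adjusted p 0.0227, edgeR 0.0988), and it passed in 2 of the 6 fits, those without Control 2 or Control 3. Prss8, which encodes prostasin, the classical activating protease of ENaC, overlapped between groups at 2984 to 4965 normalized counts in Control and 2791.5 to 3511 in the knockout (log2 fold change -0.37, SE 0.24, DESeq2 adjusted p 0.325). Without Control 3, Prss8 passed as lower (log2 fold change -0.57, DESeq2 adjusted p 0.0169).

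Among 9 genes that handle sodium or potassium beside ENaC, 0 rose and 3 fell (2 by edgeR), with a median log2 fold change of 0.14. Kcnj1, the gene of the secretory potassium channel ROMK, which is expressed in the thick ascending limb as well as in the cells that use ENaC, had 5142, 5835 and 3001 normalized counts in Control and 1712, 1719.5 and 1722 in the knockout (log2 fold change -1.44, SE 0.27, DESeq2 adjusted p 3.43e-06). The groups did not overlap. Kcnj10, a basolateral potassium channel gene, had a log2 fold change of -1.33 (SE 0.35, DESeq2 adjusted p 0.00213), and Wnk1, whose kidney form is mostly made in the distal convoluted tubule, had one of -1.09 (SE 0.25, DESeq2 adjusted p 3.22e-04). Each of these 3 passed in all 6 fits that left out 1 library. Kcnj10 did not pass with edgeR (adjusted p 0.0566) or limma-voom (0.0759). Without both libraries that carried adrenal transcripts, Kcnj1 alone passed, and the DESeq2 adjusted p was 0.163 for Kcnj10 and 0.148 for Wnk1. Of the 4 acid-sensing relatives of ENaC that were tested, Asic2 rose from a low level, 42.1 to 63.5 normalized counts in Control to 68.6 to 138 in the knockout (log2 fold change 1.07, SE 0.38, DESeq2 adjusted p 0.0393, edgeR 0.116), and it passed in 2 of the 6 fits that left out 1 library, those without Control 3 or knockout 1. It also did not pass without both libraries that carried adrenal transcripts.

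Markers of the segments that use ENaC and aldosterone did not move alike. The 10 genes summed to 1037 to 1580.3 CPM in Control and 1931 to 2218 CPM in the knockout. The sum of 5 principal cell markers was 300.3 to 586 CPM in Control and 1234 to 2643 CPM in the knockout, and 2 of the 5 rose and 0 fell (1 rose by edgeR, and 1 without both libraries that carried adrenal transcripts). Aqp2 alone made up 44.9% to 53.7% of that sum in Control and 74.9% to 85.8% in the knockout. Aqp2 encodes a water channel of principal cells, which the paper also stains, together with calbindin, to mark connecting segments. It was at 389%, 1108% and 515% of its Control mean in knockout 1, 2 and 3 (log2 fold change 2.75, SE 0.44, DESeq2 adjusted p 4.92e-08). Like Fkbp5 and Zbtb16, it was highest in knockout 2. Aqp3, the basolateral water channel, had a log2 fold change of 1.03 (SE 0.33, DESeq2 adjusted p 0.0174), and its call was lost without knockout 2 or knockout 3, and without both libraries that carried adrenal transcripts. The other 3 markers overlapped between groups and did not pass: the log2 fold change was -0.17 for Aqp4, 0.13 for Avpr2, the vasopressin receptor gene, and 0.65 for Elf5 (DESeq2 adjusted p 0.705, 0.858 and 0.131).

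Among 9 genes of the collecting duct epithelium, 3 rose (Krt8, Krt18 and Krt19) and 0 fell, with a median log2 fold change of 0.47. These keratins are also made by other simple epithelia, and the call for Krt8 was lost without Control 1, Control 2 or knockout 1. Wnt9b went the other way (log2 fold change -1.54, DESeq2 adjusted p 0.0709). It passed as lower without knockout 1 and with the replicate number as a block. Of the 5 connecting tubule markers 0 rose and 2 fell, with a median log2 fold change of -0.26, and of the 5 distal convoluted tubule markers 0 rose and 4 fell, with a median of -2.07. The sum of the latter went from 707 to 1258 CPM in Control to 84.9 to 147 CPM in the knockout. Slc12a3, the gene of the sodium-chloride cotransporter NCC, had 10736 to 21439.9 normalized counts in Control and 646 to 1636 in the knockout (log2 fold change -3.98, SE 0.38, DESeq2 adjusted p 1.19e-22). Of the 5 thick ascending limb markers, 0 rose and 4 fell, with a median log2 fold change of -1.47. Of the 8 intercalated cell markers, 1 rose and 4 fell, with a median of -0.78. At an unadjusted p under 0.05 by DESeq2, the directions counted as 0 here and among the steroid target and protease lists stayed at 0, except for 1 collecting duct gene that was lower (Wnt9b).

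Most of these marker counts were smaller by edgeR and without both libraries that carried adrenal transcripts. By edgeR, 1 collecting duct gene rose, 0 connecting tubule markers fell, 4 distal convoluted tubule markers fell, 2 thick ascending limb markers fell, and 0 intercalated cell markers rose and 3 fell. Without both libraries, 2 collecting duct genes rose, 0 connecting tubule, 3 distal convoluted tubule and 3 thick ascending limb markers fell, and 0 intercalated cell markers rose and 2 fell. Without Control 3 each of these counts was as with all libraries.

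Other lists that moved between groups were those of the proximal tubule, with 1 of 5 higher and 2 lower, and of macrophages, with 3 of 5 higher and sums of 79.1 to 118 CPM in Control and 178 to 207 CPM in the knockout. For urothelium, which also makes ENaC subunits, 1 of 5 rose and the sums were 43.98 to 86.9 CPM in Control and 76.5 to 87.3 CPM in the knockout. Mesangial cells and pericytes had 1 of 4 markers lower, and no marker of podocytes (4 genes), endothelium (4) or T cells (4, at most 5.91 CPM in sum) passed the test. Of the 4 erythroid genes, Hba-a1 and Hbb-b1 were at 0 in all 6 libraries. By edgeR 1 proximal tubule marker rose and 1 fell, 3 macrophage markers rose and 0 urothelial markers rose. Without both libraries that carried adrenal transcripts, 1 proximal tubule marker rose and 1 fell, 1 macrophage marker rose and 0 urothelial markers rose. Without Control 3, 1 proximal tubule marker rose and 4 fell. In the same fit 2 urothelial markers, 1 endothelial marker and 1 marker of mesangial cells and pericytes rose. How far these cell types carry the values of the 10 genes was not tested.

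**Figure D5:**
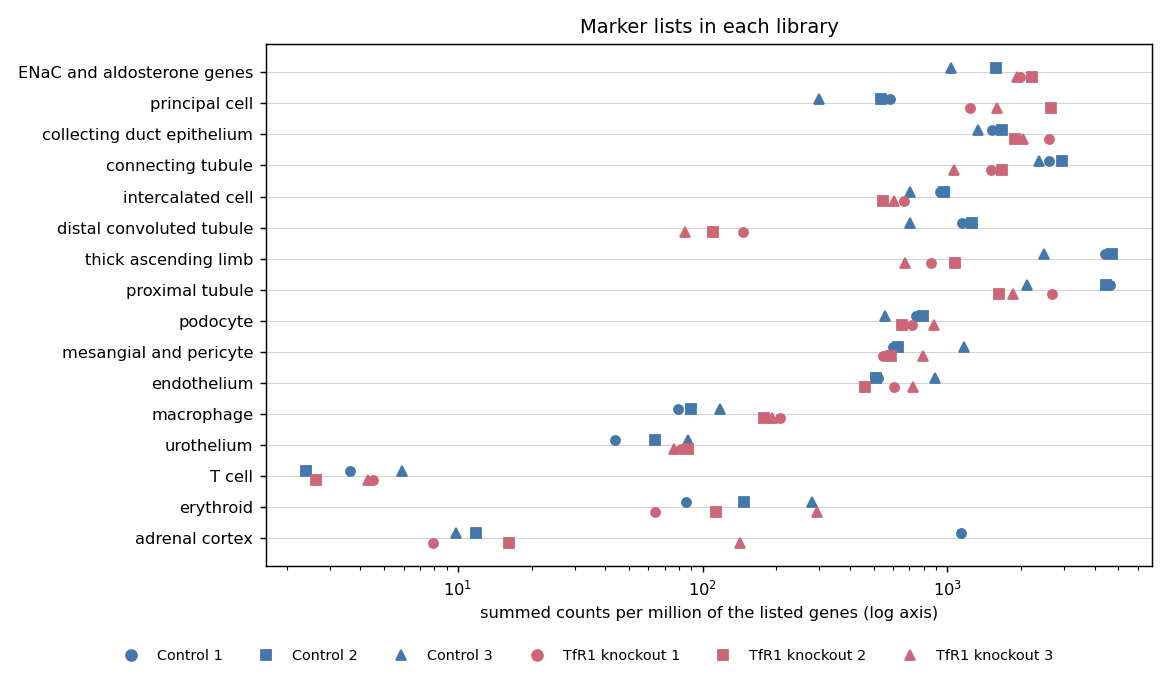
Summed CPM (log axis) of the 10 ENaC and aldosterone genes and of each marker list in every Control (blue) and TfR1 knockout (red) library. The sum of principal cell markers, mostly Aqp2 in the knockout (74.9% to 85.8%), is higher in every knockout library (1234 to 2643 against 300.3 to 586), distal convoluted tubule markers lower (84.9 to 147 against 707 to 1258), and the adrenal cortex list stands out in Control 1 and knockout 3.

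The genes whose pattern over the 6 libraries was most like the mean of the ENaC subunits were not known parts of the pathway. Among 12104 other genes that averaged 100 normalized counts or more, the highest Pearson correlations of log2 normalized counts with that mean were those of G6pc3 (0.997), Tmem199 (0.996), Trim27 (0.995), Cln3 (0.993) and Vprbp (0.992). For Nr3c2 they were those of Dcaf7 (0.996), Fam83g (0.989), D630039A03Rik, Pard6b and Rundc1 (0.988 each). All 10 of these genes were lowest in Control 3, as were the ENaC mean and Nr3c2, and none had a DESeq2 adjusted p under 0.05 between groups. These values are descriptions over 6 libraries that share their depth and scaling, and carry no p.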

How the data were processed

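RNA was isolated with TRIzol from whole kidneys, and poly-A RNA was made into Illumina TruSeq libraries and sequenced on a HiSeq2000. Per the submitters' processing notes, the authors used CASAVA 1.8.2, Trimmomatic, TopHat2 2.0.11 with the mm9 genome and HTSeq, and the deposited values are raw read counts per gene. HTSeq's version, annotation and strand setting are not given in the sources used here. Depth was 16591156 to 22898008 counts per library, and no replicate pair agreed within counting noise.

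From these counts, DESeq2 1.42.0 (Wald test, median-ratio size factors, the study's own tool, R 4.3.3) was fitted to 3 Control and 3 TfR1 knockout libraries over all genes, with Benjamini-Hochberg adjustment and a threshold of 0.05. Genes below a mean of 3.51 normalized counts, and genes that DESeq2 flagged as outliers, were left without an adjusted p. All 5 adrenal cortex genes were left out of the test as outliers. Alternatives were edgeR 4.0.16 (quasi-likelihood), limma-voom (limma 3.58.1), other scalings and filters, a replicate block and leaving out each library. The scripts were tested on simulated counts. CPM are counts scaled to the library total, and lengths are of the longest annotated transcript. Sequences were read from the NCBIM37 genome.

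All 10 genes are named with a value in every library. Genes of the pathway lists that passed the test could be named, as were the 5 genes most like the ENaC mean and Nr3c2. Listed genes that did not pass (Ndrg2, Nr3c1, Prss8, Aqp4, Avpr2, Elf5, Wnt9b) were chosen for naming after their values were seen. The single-gene result of 1 gene of the lists is not reported here. The 10 genes and all lists were chosen with earlier results of these data known.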

Additional observations from a re-analysis of the deposited data

How the results depend on the processing

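The 10 genes gave 160 single-gene results under the alternatives. In 134 the direction and the side of the threshold held, 21 lost the call, 1 gained it and 4 changed sign. For 30 other named genes, 410 of 480 held, 61 lost the call, 5 gained one and 4 changed sign: Aqp4 (log2 fold change -0.34 to 7.43e-04 when 1 library was left out, and 0.023 without both libraries that carried adrenal transcripts) and Avpr2 (-0.16 to 0.29 when 1 library was left out). Of the 10 genes, 5 were higher with DESeq2, 1 with edgeR, 2 with limma-voom, 2 to 4 when 1 library was left out and 2 without both libraries that carried adrenal transcripts, an alternative chosen after seeing the data. In all of these 0 were lower. Of the ENaC subunit genes, 1 was higher with DESeq2, 0 with edgeR, 0 with limma-voom, 0 with total-count scaling, 0 to 1 when 1 library was left out and 0 without the libraries that carried adrenal transcripts. Of the 9 steroid receptor targets, 8 were higher with DESeq2, 5 with edgeR, 4 with limma-voom and 7 to 8 when 1 library was left out. Signs turned with 1 library left out for Scnn1g (log2 fold change -0.13 to 0.49), Hsd11b2 (-1.075 to 0.065) and Nr3c2 (-0.15 to 0.22), and for the log2 ratio of Scnn1b to Scnn1a (-0.33 to 0.18). Nr3c2 was also at -0.034 with total-count scaling, which shifted the median of all genes by -0.10. The cause was not tested.

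With the replicate number as a block, 6 of the 10 genes and 2 ENaC subunit genes were higher, since Scnn1a then passed (log2 fold change 0.79, DESeq2 adjusted p 0.0403). Deviations of libraries with the same number correlated at -0.0378, 0.0548 and 0.0899 on the log2 scale and at 0.0257, 0.0244 and 0.178 on the variance-stabilized scale, so not every pair was above 0.1 and libraries were not treated as pairs. Over all genes, 1277 were higher and 1186 lower with DESeq2, 493 and 428 with edgeR, 485 and 456 with limma-voom, and 421 and 260 without the libraries that carried adrenal transcripts. When 1 library was left out, 664 to 1531 were higher and 575 to 1674 lower. With 3 libraries a group, Scnn1a and Nedd4l did not overlap between groups and still did not pass the test.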
